A study of Mus musculus with 9 samples.

Results

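The genes of the plasma proteins that hepatocytes release into the blood were followed in differentiated mouse bile duct organoids. They were taken by name from a list of 41 genes, without regard to their values, and 39 of them had a row among the 32137 gene rows of each library. Serpina1d and F10 were not analysed here. Of the 39 genes, 7 reached at least 1 FPKM in all 9 libraries. FPKM, read fragments scaled by transcript length and sequencing depth, is a level per length and can be compared between genes. A further 10 genes reached 1 FPKM in some libraries, 14 stayed below it in all 9, and 8 had no library with more than 3 counts.

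All organoids came from a single male mouse of mixed genetic background carrying Axin2CreERT2+/- and R26-LSL-tdTom+/-, and were cultured to passages 5, 6 and 10. In this genotype a tamoxifen-dependent Cre recombinase made from the Axin2 gene, a target of Wnt signalling, switches on the red fluorescent protein tdTomato. After 2 to 4 days of expansion and 11 days of differentiation, with 3 uM dexamethasone and 500 nM 4-hydroxytamoxifen in the last 24 h, cells were dissociated and sorted. The untreated group (n = 3) held tdTomato-negative cells that had received no Rspo1. The Rspo1-negative and Rspo1-positive groups (n = 3 each) held tdTomato-negative and tdTomato-positive cells of organoids given 100 ng/ml Rspo1 (R-spondin 1, which strengthens Wnt signalling at the cell surface) in the same 24 h. Each group had 1 library per passage, and values below are given in the order of passages 5, 6 and 10. No tdTomato-positive cells without Rspo1 were sampled, and no library of hepatocytes or whole liver was among the 9, so levels are compared within the organoids only. Because the passages derive from 1 animal, p-values between groups measure the spread between repeated cultures and not between animals.

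Total counts per library ranged from 23423979 to 37351448, and 22021 to 24578 genes had at least 1 count. The duct identity of the samples was plain: Krt19, a keratin of bile duct cells, averaged 1499 FPKM, Epcam, a duct surface protein, 287 FPKM and Sox9, a duct transcription factor, 25.0 FPKM. Of 16 biliary markers 14 were at 1 FPKM or more in all 9 libraries. Of the markers of other cells that had a row, 2 of 5 macrophage, 0 of 10 stellate and fibroblast, 1 of 8 endothelial and 1 of 6 erythroid and platelet markers were, and 8, 2, 1 and 3 further genes of these lists, which had no row, were not analysed here. The last 4 lists summed to 13.5 to 27.6, 0.636 to 5.82, 4.82 to 13.9 and 27.0 to 52.1 FPKM, and Cdh5 and Hbb-bs were at 0 in all libraries.

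Hepatocytes make most proteins of the blood plasma: albumin and other carriers of metals, hormones and vitamins, the apolipoproteins of lipoprotein particles, clotting factors and their inhibitors, and inhibitors of proteases. Their genes are switched on together as the liver matures, under transcription factors such as HNF4A and the C/EBP family, and Afp, expressed in fetal liver, is silenced after birth while its neighbour Alb stays on. Several of them, among them haptoglobin, orosomucoid and the fibrinogen chains, are acute phase genes that interleukin-6 and glucocorticoids raise in the liver.

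Promoter sequences, the 250 bases before the gene's RefSeq start on GRCm38.p6, were found for 33 of the 41 genes. Shown here are those of Alb and Afp, neighbours on chromosome 5 that mark mature and fetal liver, and of the 3 fibrinogen chains, whose products join into 1 protein but whose levels differed. Capitals mark the C/EBP motif TTGCNNAA, the interleukin-6 response motif CTGGGAA and the TATA box TATAAA, each searched on both strands. Alb lies at chr5:90460620-90460869 (plus strand), Afp at chr5:90490464-90490713 (plus), Fga at chr3:83025903-83026152 (plus), Fgb at chr3:83049864-83050113 (minus) and Fgg at chr3:83007474-83007723 (plus).
Alb: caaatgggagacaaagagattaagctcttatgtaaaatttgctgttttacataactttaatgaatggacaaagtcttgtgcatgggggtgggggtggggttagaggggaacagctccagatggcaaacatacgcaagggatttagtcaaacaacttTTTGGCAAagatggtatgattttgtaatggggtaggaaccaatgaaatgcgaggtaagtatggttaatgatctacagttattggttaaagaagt
Afp: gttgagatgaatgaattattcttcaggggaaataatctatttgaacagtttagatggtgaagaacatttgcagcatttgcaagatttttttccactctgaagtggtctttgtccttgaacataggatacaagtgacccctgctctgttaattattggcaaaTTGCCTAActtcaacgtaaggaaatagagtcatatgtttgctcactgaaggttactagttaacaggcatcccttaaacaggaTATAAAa
Fga: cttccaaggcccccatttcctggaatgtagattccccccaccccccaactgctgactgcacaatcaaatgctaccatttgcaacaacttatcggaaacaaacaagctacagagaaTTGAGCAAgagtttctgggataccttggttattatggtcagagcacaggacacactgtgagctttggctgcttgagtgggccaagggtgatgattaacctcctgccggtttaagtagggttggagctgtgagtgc
Fgb: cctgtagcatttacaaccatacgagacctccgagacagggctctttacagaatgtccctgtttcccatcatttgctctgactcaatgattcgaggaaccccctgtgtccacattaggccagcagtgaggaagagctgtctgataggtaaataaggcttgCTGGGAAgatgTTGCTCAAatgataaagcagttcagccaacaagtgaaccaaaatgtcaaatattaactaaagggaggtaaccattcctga
Fgg: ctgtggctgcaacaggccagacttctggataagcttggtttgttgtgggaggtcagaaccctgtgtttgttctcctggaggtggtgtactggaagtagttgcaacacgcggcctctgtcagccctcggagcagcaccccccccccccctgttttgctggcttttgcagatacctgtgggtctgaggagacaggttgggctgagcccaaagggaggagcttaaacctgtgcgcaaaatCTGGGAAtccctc
The C/EBP motif lay at -94 to -87 from the start of Alb, -89 to -82 in Afp, -135 to -128 in Fga and -80 to -73 in Fgb. Fgg did not hold it, and shared with Fgb the motif CTGGGAA, at -13 to -7 in Fgg and -91 to -85 in Fgb. Over the 37 promoters listed for the 33 genes, some of which have more than 1 start, the C/EBP motif was in 14, CTGGGAA in 3 and TATAAA in 6. Among all 32851 promoters of this length the C/EBP motif was in 9.56%, CTGGGAA in 9.1% and TATAAA in 12.4%. The HNF4 type motif CAAAGTCCA (0.384% of all promoters) was found in 0 of the 37. The glucocorticoid receptor motif (GNACA and TGTNC with 3 bases between them, 0.387% of all) was in 1, that of Serpina3n, and the TCF/LEF motif CTTTGAT (3.21%) of Wnt-responsive genes was in those of Rbp4 and Serpind1. A match is a match of letters and not a measured binding site.

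The carriers were the best represented of the plasma protein genes, with 6 of 11 at 1 FPKM or more in all 9 libraries. Trf, which encodes transferrin, the iron carrier of the blood (chr9:103204001-103230444, minus strand), was far above the rest, at a mean of 1095 FPKM, the rank of 40 among all gene rows. Its levels were 324, 1008 and 601 FPKM in untreated, 1094, 1723 and 1856 FPKM in Rspo1-negative and 980, 1066 and 1202 FPKM in Rspo1-positive cells. Every Rspo1-negative library was above every untreated library, while the Rspo1-positive libraries overlapped with both. Of the exon bases of Trf 63.5% are shared with the same-strand gene model Gm20425, whose counts were 95.2% to 98.5% of those of Trf in each library, so the reads of the 2 models cannot be told apart.

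Ttr, which encodes transthyretin, the carrier of thyroid hormone and of the retinol-binding protein (chr18:20665280-20674321), followed with a mean of 273 FPKM and the rank of 193. It measured 311, 351 and 124 FPKM in untreated, 465, 364 and 214 FPKM in Rspo1-negative and 255, 209 and 159 FPKM in Rspo1-positive cells. All 3 groups overlapped, and the passage 10 library was the lowest of each group. Ambp (chr4:63143275-63154799, minus strand), whose product is cut into alpha-1-microglobulin and bikunin, the light chain of the inter-alpha-trypsin inhibitor, averaged 59.6 FPKM with the rank of 1113. Its levels were 90.0, 139 and 68.8 FPKM in untreated, 60.5, 57.3 and 47.0 FPKM in Rspo1-negative and 29.4, 23.1 and 21.7 FPKM in Rspo1-positive cells. The 3 groups did not overlap at all, in the order untreated, Rspo1-negative, Rspo1-positive.

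Alb (chr5:90460897-90476602), the gene of albumin which in mature hepatocytes is among the most abundant transcripts, was present but weak, at a mean of 4.73 FPKM and the rank of 9113. Untreated cells had 4.39, 7.38 and 6.99 FPKM, Rspo1-negative cells 4.74, 3.84 and 6.06 FPKM and Rspo1-positive cells 3.02, 1.92 and 4.18 FPKM, from 116 to 503 counts. The Rspo1-positive libraries all lay below the untreated ones, and both overlapped with the Rspo1-negative libraries. Trf was 232 times, Ttr 57.7 times and Ambp 12.6 times the level of Alb by mean FPKM, and the duct keratin Krt19 317 times. Afp, the fetal member of the albumin family, had 2 to 17 counts per library and did not reach 1 FPKM anywhere. Its levels were 0.132, 0.127 and 0.11 FPKM in untreated, 0.227, 0.199 and 0.0408 FPKM in Rspo1-negative and 0.0355, 0.0490 and 0.0395 FPKM in Rspo1-positive cells, and the mean of Alb was 44.3 times that of Afp.

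Rbp4, the plasma carrier of retinol, had 4.18, 10.3 and 4.64 FPKM in untreated, 8.71, 13.2 and 9.01 FPKM in Rspo1-negative and 4.81, 8.45 and 5.59 FPKM in Rspo1-positive cells. The Rspo1-negative libraries were all above the Rspo1-positive ones. Hp, which encodes haptoglobin, the carrier of free haemoglobin, had 1.20, 8.62 and 3.32 FPKM in untreated, 4.58, 10.9 and 8.61 FPKM in Rspo1-negative and 2.18, 6.56 and 4.32 FPKM in Rspo1-positive cells. Passage 5 was the lowest and passage 6 the highest library in each group. Orm1, the acute phase protein orosomucoid, had 1.29, 4.96 and 9.49 FPKM in untreated, 2.02, 3.92 and 10.4 FPKM in Rspo1-negative and 0.976, 1.82 and 6.06 FPKM in Rspo1-positive cells, and was higher at each later passage in every group. Its paralogs Orm2 and Orm3, which could share reads with it, had 2 to 11 and 0 to 8 counts. Among the other carriers, Hpx, the haem carrier hemopexin, ranged from 0.660 to 2.00 FPKM and Ahsg, fetuin-A, had 0 to 9 counts. Serpina6, the carrier of corticosteroids, was not detected, with at most 2 counts in a library.

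Outside the carriers, Itih2 was the only gene at 1 FPKM or more in all libraries. Among 8 apolipoproteins none reached 1 FPKM in all libraries. Apoe, which directs remnant particles to their receptors and is also made outside the liver, ranged from 0.817 to 2.71 FPKM. Apoh, a phospholipid-binding glycoprotein, had 2.42, 1.96 and 2.16 FPKM in untreated, 1.27, 1.35 and 0.955 FPKM in Rspo1-negative and 1.99, 1.39 and 1.35 FPKM in Rspo1-positive cells, the untreated libraries all above the Rspo1-negative ones. The main proteins of high density lipoprotein were near the limit, Apoa1 at 0.184 to 1.50 and Apoa2 at 0.655 to 1.33 FPKM. Apob, the structural protein of very low density lipoprotein, had 1 to 42 counts. It measured 0.0588, 0.0990 and 0.0122 FPKM in untreated, 0.0138, 0.0442 and 0.00302 FPKM in Rspo1-negative and 0.0525, 0.0966 and 0.0195 FPKM in Rspo1-positive cells. Within each passage the Rspo1-negative library was the lowest for Apob. Apoc1 and Apoc3, small proteins that regulate lipoprotein metabolism, reached at most 8 and 4 counts, and Apoa4 at most 1.

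The clotting genes were partial. F5, the cofactor factor V (chr1:164151838-164220277), had 0.106, 0.0663 and 0.285 FPKM in untreated, 0.281, 0.586 and 0.550 FPKM in Rspo1-negative and 0.601, 0.992 and 1.09 FPKM in Rspo1-positive cells, from 15 to 299 counts. Every Rspo1-positive library was above all other libraries. Of the vitamin K-dependent factors, F2 (prothrombin) had 0 to 28 counts, F9 0 to 8 and F7 at most 1. The fibrinogen chains, whose promoters are shown above, were unequal, with means of 0.876 FPKM for Fga, 0.238 FPKM for Fgb and 0.106 FPKM for Fgg. Fga had 0.106, 1.54 and 2.02 FPKM in untreated, 0.234, 0.397 and 2.07 FPKM in Rspo1-negative and 0.198, 0.247 and 1.08 FPKM in Rspo1-positive cells, and was highest at passage 10 in each group. Fgb had 1, 13 and 161 counts in untreated, 4, 0 and 52 in Rspo1-negative and 8, 7 and 15 in Rspo1-positive cells. Fgg had 0, 4 and 18 counts in untreated, 0, 2 and 14 in Rspo1-negative and 0, 8 and 3 in Rspo1-positive cells, so that its highest library was that of passage 10 in the first 2 groups and that of passage 6 in the last.

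Of the inhibitors, Serpinc1, which encodes antithrombin, the main brake on thrombin (chr1:160978585-161005863), had 0.770, 0.727 and 1.13 FPKM in untreated, 0.271, 0.603 and 0.186 FPKM in Rspo1-negative and 0.908, 1.10 and 1.10 FPKM in Rspo1-positive cells. All 3 Rspo1-negative libraries were below the others. Serpinc1 shares 34.4% of its exon bases with Zbtb37 on the opposite strand, whose counts were 275% to 361% of its own. The strand setting of the counting is not given in the sources used here, so reads of the 2 genes cannot be told apart. Serpind1, heparin cofactor II, had 1 to 6 counts, and Plg (plasminogen) at most 2. The alpha-1-antitrypsin genes were nearly silent: Serpina1a and Serpina1c had 0 to 7 counts, Serpina1b at most 2 and Serpina1e at most 3. These copies are near-identical, so that reads may be split or dropped among them. Serpina3n, an acute phase antichymotrypsin, had at most 2 counts.

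Of the inter-alpha-trypsin inhibitor heavy chains in the list, which stabilise hyaluronan in the matrix, only Itih2 (chr2:10094593-10131396, minus strand) reached 1 FPKM. It had 6.87, 8.66 and 4.24 FPKM in untreated, 5.52, 4.85 and 3.48 FPKM in Rspo1-negative and 3.97, 3.39 and 1.92 FPKM in Rspo1-positive cells. The Rspo1-positive libraries were all below the untreated ones. The chains Itih1, Itih3 and Itih4 had at most 5, 4 and 22 counts, and Vtn, the adhesive plasma protein vitronectin, at most 3. The light chain gene Ambp was thus 12.5 times the level of Itih2, the best expressed of the listed heavy chains.

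**Figure D1:**
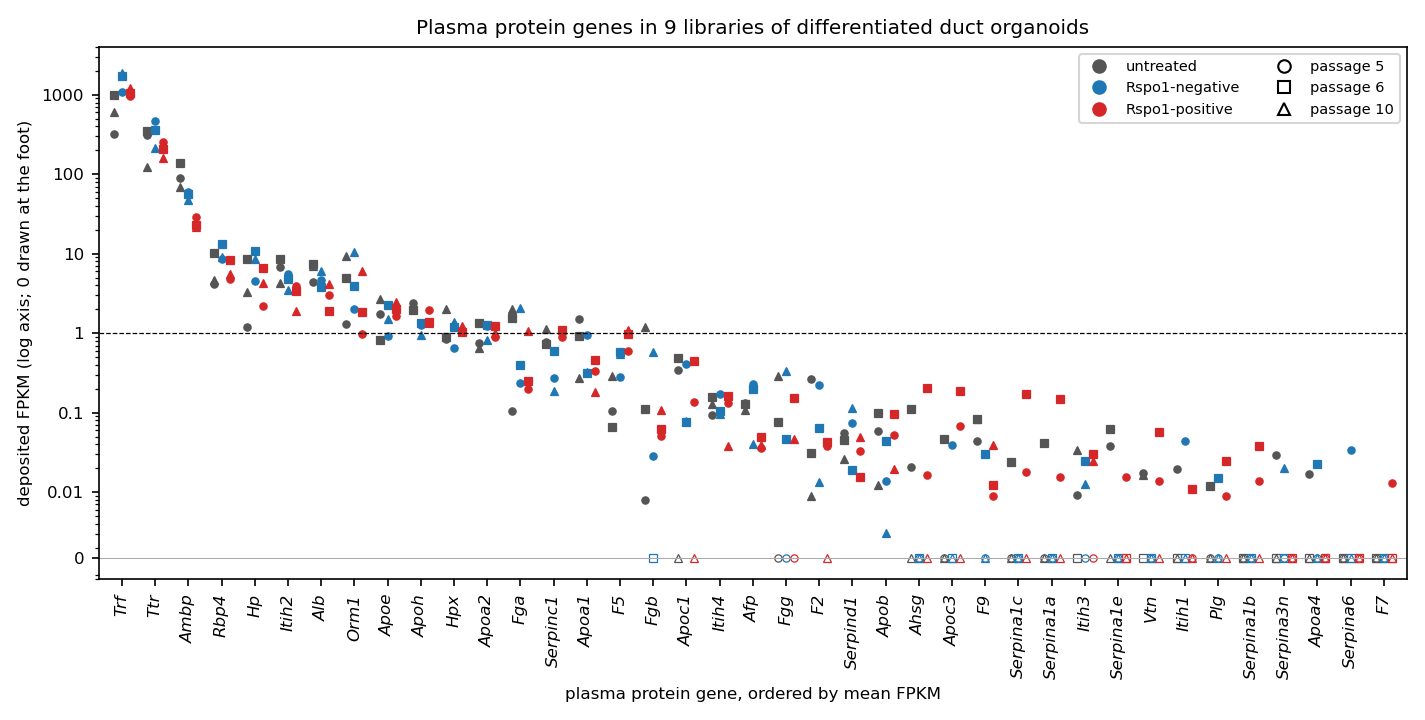
Level of each of the 39 plasma protein genes (horizontal axis, ordered by mean) as deposited FPKM (vertical axis, logarithmic, with 0 drawn as open symbols at the foot) in 9 libraries, with colours for groups, shapes for passages and a dashed line at 1 FPKM. Trf, Ttr and Ambp stand above the others, Alb has a mean of 4.73 FPKM, and 22 genes stay below 1 FPKM in every library.

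Within this list, the plasma protein transcripts were thus dominated by a few genes. The summed level ran from 753 to 2189 FPKM per library, 0.146% to 0.523% of all counts, and Trf, Ttr and Ambp made 95.0% to 98.2% of it. The remaining 36 genes together came to 23.3 to 49.7 FPKM. With a threshold of 0.5 in place of 1 FPKM, 12 genes were at or above it in all 9 libraries, and with 2 FPKM 4 genes. The share of Trf in the summed level was lowest in the untreated passage 5 library, at 43.1%, and highest in the Rspo1-negative passage 10 library, at 85.8%.

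**Figure D2:**
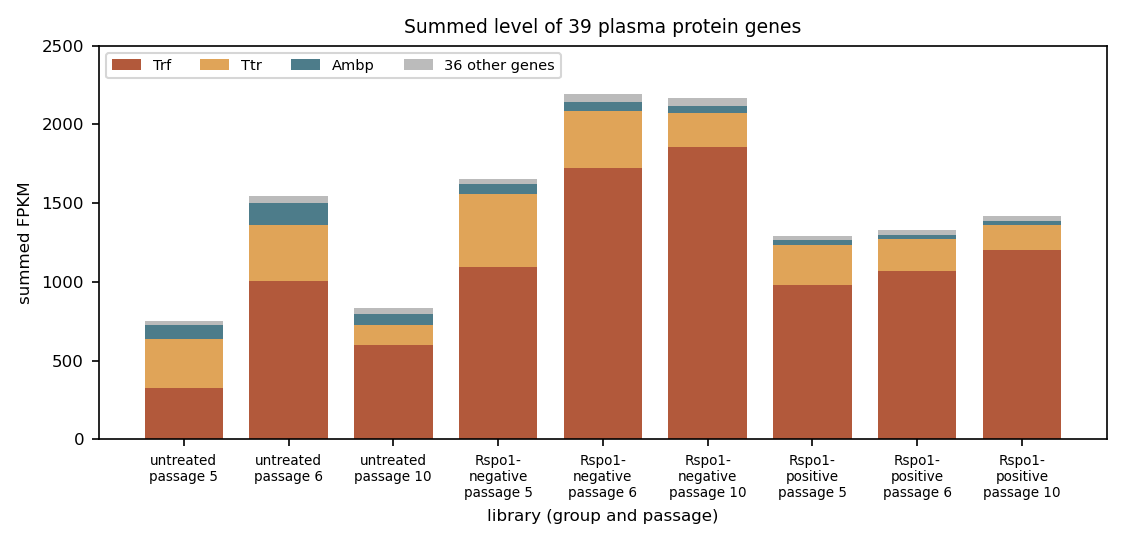
Summed FPKM of the 39 plasma protein genes (vertical axis) in each library (horizontal axis, group and passage), stacked by Trf, Ttr, Ambp and the 36 other genes. The sums run from 753 FPKM in the untreated passage 5 library to 2189 FPKM in the Rspo1-negative passage 6 library, and the 36 other genes never exceed 49.7 FPKM.

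Whether reporter-positive cells differed from untreated cells was tested with edgeR over 17011 genes, with passage as a block. Of the plasma protein genes 19 passed the filter on low counts. Since a gene may pass through the group where it is high, counts over these 19 describe them alone. In Rspo1-positive cells 2 of the 19 were higher (F5 and Trf) and 4 lower (Ambp, Itih2, Alb and Orm1) than in untreated cells, 6 of 19 beside 13.2% of all genes tested (6.44% higher and 6.77% lower). The median log2 fold change of the 19 was -0.23, beside -0.0017 over all genes. With 1 library left out, and the filter run again, the median lay between -0.52 (without untreated passage 5) and -0.075 (without Rspo1-positive passage 10), and was -0.38, -0.48 and -0.51 without untreated passage 10, Rspo1-positive passage 5 and Rspo1-positive passage 6. In bulk RNA, fewer cells of a type and less RNA per cell cannot be told apart.

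Ambp fell by 1.97 on the log2 scale, the most of the 19 genes (SE 0.18, adjusted p = 3.88e-05 by edgeR), from 99.1 ± 35.8 to 24.7 ± 4.09 FPKM (SD, n = 3). The call held in all 16 alternative settings, from -2.12 to -1.68. Itih2, whose product is joined to bikunin from Ambp, fell by 1.10 (SE 0.16, adjusted p = 0.000859 by edgeR), from 6.59 ± 2.22 to 3.09 ± 1.06 FPKM. Alb fell by 1.07 (SE 0.24, adjusted p = 0.0132 by edgeR), from 6.26 ± 1.63 to 3.04 ± 1.13 FPKM. The call for Alb was lost without the Rspo1-positive passage 6 library (-0.78, adjusted p = 0.0957 by edgeR). F5 rose by 2.60 (SE 0.34, adjusted p = 0.00046 by edgeR), from 0.153 ± 0.117 to 0.895 ± 0.260 FPKM, in all 16 alternatives, from 2.12 to 3.11. Trf at 0.88 (adjusted p = 0.0432) and Orm1 at -0.86 (adjusted p = 0.0403, both by edgeR) were near the threshold. In the authors' deposited table Orm1 was at -0.84 with an adjusted p of 0.1. Each was lost when single libraries were left out: Trf without the passage 5 or the passage 10 library of any group, and Orm1 without any library other than untreated passage 5 and Rspo1-negative passage 6. Their adjusted p-values by edgeR then ranged from 0.0628 to 0.246 for Trf and from 0.0571 to 0.238 for Orm1. Without the block on passage only Ambp and F5 remained called by edgeR, with Alb at an adjusted p of 0.0942, Itih2 at 0.0768, Trf at 0.328 and Orm1 at 0.707.

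Ttr and Hp did not pass the test here, at -0.23 (SE 0.19) and 0.19 (SE 0.26) on the log2 scale. All called changes had the same direction in 3 of 3 passages. A call from the same libraries with passage as a block nearly requires this, so it adds no separate support. Beside them, the biliary marker Krt19 fell by 1.06 (adjusted p = 0.00139 by edgeR) in the same comparison and Sox9 rose by 1.34 (adjusted p = 7.78e-05 by edgeR). All 11 proliferation markers were higher, beside 6.44% of all genes tested, and their sum was 42.0 to 71.7 FPKM in untreated and 188 to 243 FPKM in Rspo1-positive libraries. Their part in the changes of the plasma protein genes was not tested.

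**Figure D3:**
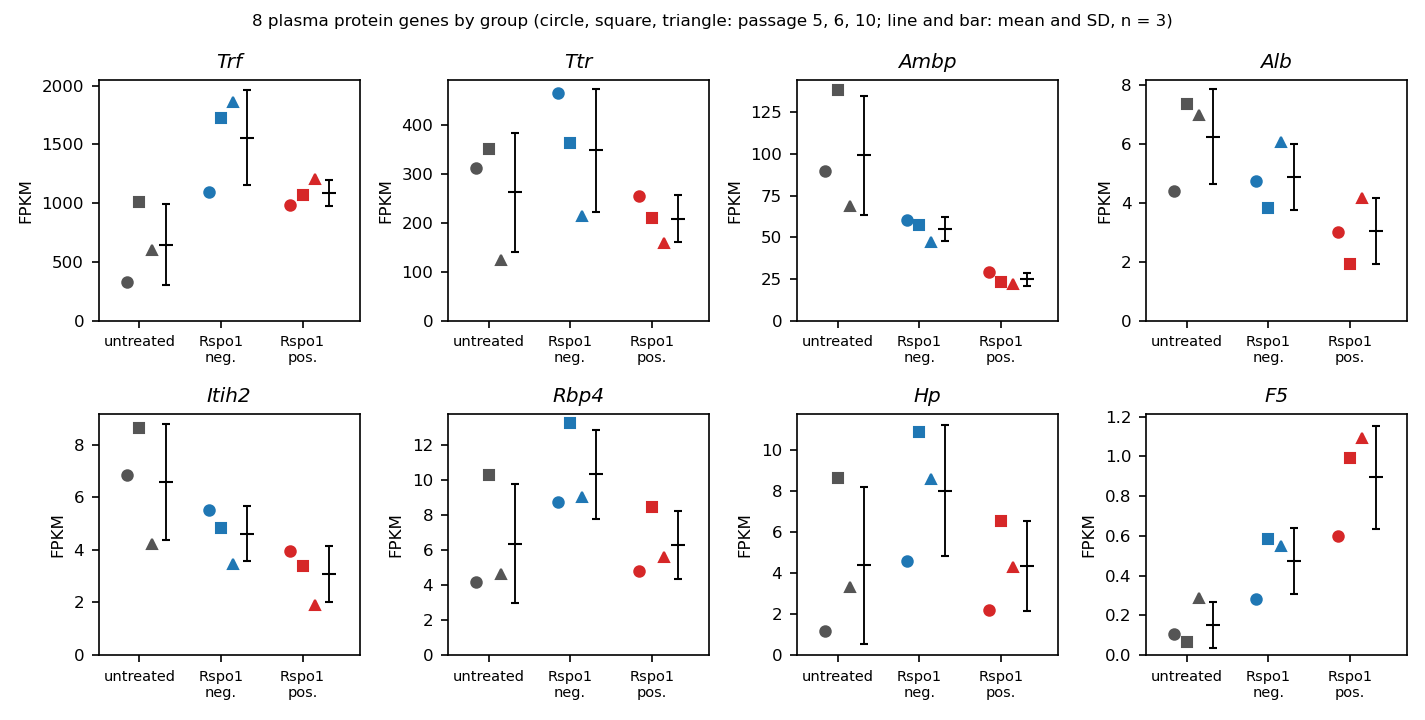
FPKM (vertical axis, from 0) of 8 plasma protein genes in untreated, Rspo1-negative and Rspo1-positive cells (horizontal axis), with shapes for passages and the mean and SD over 3 libraries beside them. Ambp falls without overlap across the 3 groups, from 99.1 over 54.9 to 24.7 FPKM on average, and F5 is highest in every Rspo1-positive library.

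Reporter-negative cells of the Rspo1-treated organoids were compared with untreated cells to see what Rspo1 treatment went with outside the reporter gate. Trf, F5, Hp and Rbp4 were higher and Ambp, Itih2, Apoh, Apob and Serpinc1 lower, 9 of 19 beside 35.5% of all genes tested (15.5% higher and 20.0% lower). The median log2 fold change was -0.21, beside -0.0086 over all genes. Its sign rested on 1 library, since it was 0.046 without untreated passage 10. It was -0.069 and -0.12 without Rspo1-negative passage 6 and 10, -0.13 and -0.11 without Rspo1-positive passage 5 and 10, -0.14 with upper-quartile scaling and -0.48 with an offset for GC content and length. Trf rose by 1.31 (SE 0.25, adjusted p = 0.00289 by edgeR), from 644 ± 344 to 1558 ± 407 FPKM. Ambp fell by 0.86 (SE 0.18, adjusted p = 0.00416 by edgeR), to 54.9 ± 7.08 FPKM, and F5 rose by 1.64 (SE 0.35, adjusted p = 0.00492 by edgeR), to 0.472 ± 0.167 FPKM. These 3 calls held in all 16 alternatives.

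Serpinc1 fell by 1.40 (SE 0.35, adjusted p = 0.0102 by edgeR), and its opposite-strand partner Zbtb37 was also lowest in this group, with 146, 242 and 76 counts against 455, 383 and 652 in untreated cells. Its call ended without the passage 5 or the passage 10 library of the Rspo1-negative group (adjusted p 0.0529 to 0.0683 by edgeR). Apoh fell by 0.92 (SE 0.25, adjusted p = 0.0147 by edgeR), a call lost without either the passage 5 or the passage 10 library of the 2 groups compared (0.0508 to 0.0952). Hp (1.10, adjusted p = 0.00749 by edgeR) and Rbp4 (0.75, adjusted p = 0.00696 by edgeR) rose, and both lost the call without the Rspo1-negative passage 5 library (0.0516 and 0.0521). Itih2 (-0.52, adjusted p = 0.0254 by edgeR) lost it without untreated passage 6 or 10 or Rspo1-negative passage 5 or 6 (0.0529 to 0.116). Apob (-1.59, adjusted p = 0.0154 by edgeR) lost it without untreated passage 5 or Rspo1-negative passage 5 or 10 (0.0503 to 0.115). Without Rspo1-negative passage 5 only 3 plasma protein genes were called, and 3229 of all genes tested, beside 6039 in the main fit. Without the passage block the edgeR calls of Apob, Rbp4, Hp and Itih2 ended, with adjusted p from 0.208 to 0.362. Alb was at -0.41 (SE 0.24, adjusted p = 0.202 by edgeR) and Ttr at 0.42 (SE 0.19, adjusted p = 0.106 by edgeR), so neither passed the test. In the authors' deposited table Ttr had a log2 fold change of 0.46 with an adjusted p of 0.0429. The same deposited table does not call Apoh, at -0.90 with an adjusted p of 0.0987, or Itih2, at -0.50 with an adjusted p of 0.0641.

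The 2 sorted fractions of the same Rspo1-treated organoids differed in 10 of the 19 genes, beside 38.9% of all genes tested (21.5% higher and 17.4% lower). The median log2 fold change of the 19 was -0.53, beside 0.03 over all genes. It was -0.31 with an offset for GC content and length, and -0.29 over all 39 genes without the filter. Lower in Rspo1-positive cells were Ambp, Orm1, Hp, Rbp4, Alb, Ttr and Itih2, and higher were Apob, Serpinc1 and F5. This comparison shares its Rspo1-negative libraries with the preceding one, and genes such as Apob, Serpinc1, Hp and Rbp4 have opposite signs in both. Ambp fell by 1.11 (SE 0.18, adjusted p = 0.00111 by edgeR) and Serpinc1 was higher by 1.62 (SE 0.34, adjusted p = 0.00427 by edgeR), in all 16 alternatives each. Zbtb37, the opposite-strand partner of Serpinc1, had 146, 242 and 76 counts in Rspo1-negative and 631, 449 and 637 in Rspo1-positive cells. The settings cannot separate the reads of these genes. Ttr fell by 0.65 (SE 0.19, adjusted p = 0.0193 by edgeR), from 348 ± 126 to 208 ± 48.0 FPKM. Alb fell by 0.66 (SE 0.24, adjusted p = 0.0482 by edgeR), from 4.88 ± 1.12 to 3.04 ± 1.13 FPKM. Trf, at -0.44 (SE 0.25, adjusted p = 0.188 by edgeR), did not pass the test, while the authors' deposited table has it at -0.48 with an adjusted p of 0.00128.

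The calls other than Ambp and Serpinc1 rested on single libraries. Without the Rspo1-negative passage 5 library 2 plasma protein genes were called. The count was 6 without Rspo1-negative passage 10, 6 without Rspo1-positive passage 5 and 5 without Rspo1-positive passage 6. In the same order, from Rspo1-negative passage 5 on, 3676, 3674, 3778 and 4688 of all genes tested were called, beside 6624 in the main fit. Rbp4 (-0.70, adjusted p = 0.00842 by edgeR) was lost without the Rspo1-negative passage 5 library alone (-0.62, 0.0625). Without that same library the calls of Orm1, Apob and Hp ended as well. Orm1 (-0.92, adjusted p = 0.0125 by edgeR) was further lost without Rspo1-positive passage 6, Apob (1.64, 0.0119) without Rspo1-positive passage 5, and Hp (-0.91, 0.0152) without Rspo1-negative passage 10 or Rspo1-positive passage 6, and their adjusted p then lay between 0.0527 and 0.11 by edgeR. F5 (0.96, 0.031) and Alb were lost without any of the 6 libraries compared other than Rspo1-negative passage 6, with adjusted p up to 0.161 and 0.215 by edgeR. The same held for Itih2 (-0.58, 0.0154) and Ttr, except that they were also called without Rspo1-positive passage 5 and Rspo1-positive passage 10, respectively, and their adjusted p reached 0.0804 and 0.113 by edgeR. Without the passage block only Ambp and Serpinc1 were called, and the other 8 had adjusted p from 0.161 to 0.49 by edgeR.

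**Figure D4:**
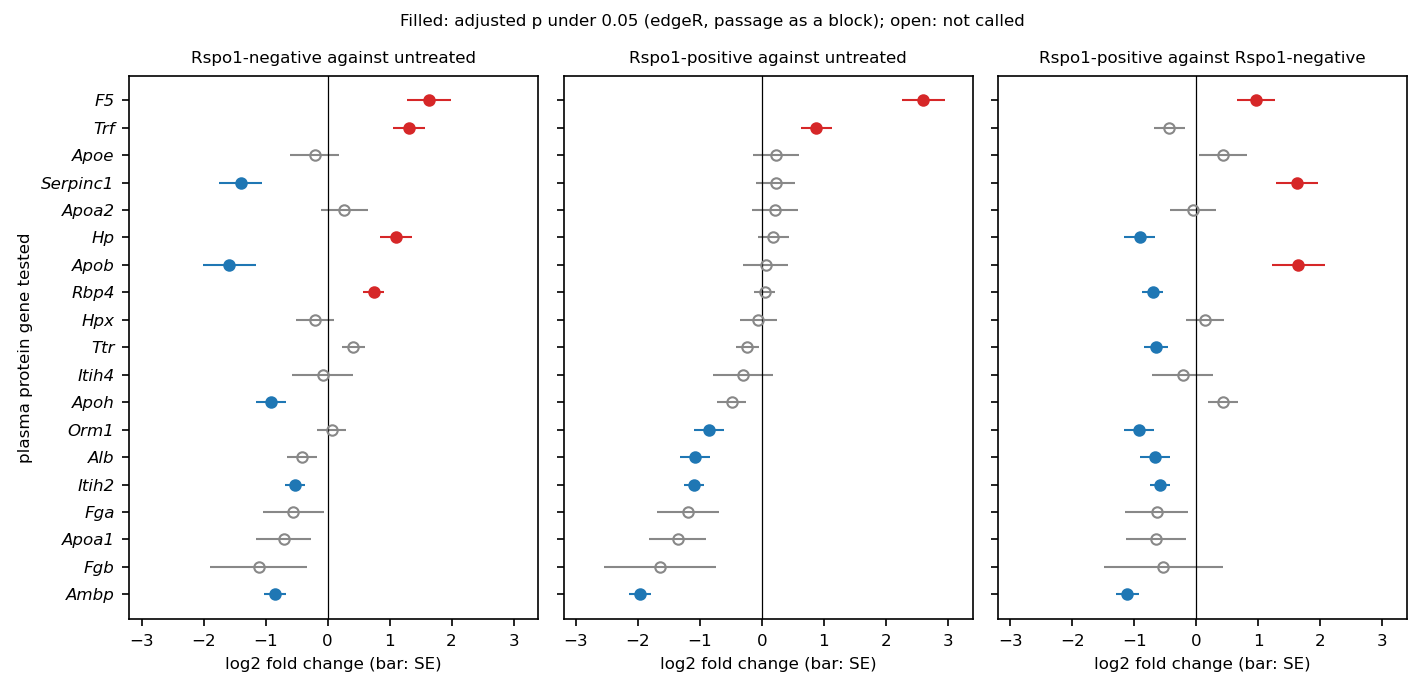
Log2 fold change (horizontal axis, bars for 1 SE) of the 19 plasma protein genes tested (vertical axis) in the 3 comparisons, filled where edgeR's adjusted p was under 0.05. F5 and Ambp, at 2.60 and -1.97, are the outermost called genes between Rspo1-positive and untreated cells, and Apob and Serpinc1 have opposite signs in the outer panels.

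Both comparisons with Rspo1-negative cells moved with base composition. Over 17001 genes the log2 fold change had a rank correlation with GC content of 0.499 between Rspo1-negative and untreated cells and of -0.506 between the sorted fractions, but of -0.013 between Rspo1-positive and untreated cells. With an offset for GC content and length beside the passage block, Hp (0.77), Rbp4 (0.43) and Apob (-0.81) lost their calls between Rspo1-negative and untreated cells, with adjusted p from 0.0533 to 0.193 by edgeR. Between the sorted fractions Apob (0.77), F5 (0.37), Hp (-0.58) and Rbp4 (-0.37) lost theirs, with adjusted p from 0.115 to 0.361 by edgeR. Ambp kept its call in both, at -1.15 and -0.81, as did Serpinc1, at -1.10 and 1.25. Between Rspo1-positive and untreated cells only Trf was lost (0.83, adjusted p = 0.0504 by edgeR), and Ambp, Itih2, Alb and F5 were at -1.95, -1.18, -1.14 and 2.55.

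Passage was the other axis along which the plasma protein genes varied. Between passages 10 and 5, over all 3 groups, Orm1, Fga, Fgb and Hp were higher and Ttr, Itih2, Apoa1 and Apob lower, 8 of 19 beside 9.07% of all genes tested (4.57% higher and 4.50% lower). The median log2 fold change was 0.27, beside 0.0066 over all genes, but its sign was not stable. It was -0.067 without untreated passage 10 and -0.65 over all 39 genes without the filter, most of the added genes having few counts, and 0.094 and 0.13 without the passage 10 library of the Rspo1-negative and Rspo1-positive groups. Each passage had 1 library per group, and both sorted fractions came from the same organoids. The p-values for passage thus do not measure the spread between repeated cultures of a passage. Orm1 rose by 2.64 (SE 0.25, adjusted p = 0.000316 by edgeR). Its mean went from 1.43 ± 0.536 at passage 5 over 3.57 ± 1.60 at passage 6 to 8.66 ± 2.30 FPKM at passage 10 (SD over the 3 groups, 1 library each). Fga rose by 3.17 (SE 0.52, adjusted p = 0.00483 by edgeR), from 0.179 ± 0.0661 to 1.72 ± 0.557 FPKM. Ttr fell by 0.99 (SE 0.19, adjusted p = 0.0103 by edgeR), from 344 ± 109 to 166 ± 45.6 FPKM. Of these 3, only Ttr lost its call when a library was left out, without Rspo1-negative passage 5 (-0.93, adjusted p = 0.0797 by edgeR).

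Fgb rose by 3.95 (SE 0.87, adjusted p = 0.0195 by edgeR), on counts that passed the filter mainly through the passage 10 libraries, and the call ended without untreated or Rspo1-negative passage 5 or 10 (0.0893 to 0.129). Fgg, with at most 18 counts, was not tested. Hp (1.10, adjusted p = 0.0252 by edgeR) lost its call without any single library of passage 5 or 10, with adjusted p up to 0.116. Apoa1 (-1.69, adjusted p = 0.0483 by edgeR) and Apob (-1.76, adjusted p = 0.0351 by edgeR) lost theirs without any library other than the passage 6 libraries of the untreated and Rspo1-negative groups, with adjusted p up to 0.256 and 0.172. Itih2 (-0.77, adjusted p = 0.0143 by edgeR) lost it without untreated passage 10, Rspo1-negative passage 5 or Rspo1-positive passage 5 or 10 (up to 0.0832). The number of plasma protein genes called between passages 10 and 5 was 15 without untreated passage 6, and 4, 3, 2, 5 and 5 without untreated passage 5, untreated passage 10, Rspo1-negative passage 5, Rspo1-negative passage 10 and Rspo1-positive passage 5. In the same order, 3594, 525, 563, 405, 702 and 641 of all genes tested were called, beside 1543 in the main fit. Between passages 6 and 5, 3 of 19 genes rose and none fell, beside 2.49% of all genes tested (1.16% higher and 1.33% lower): Hp by 1.88 (SE 0.26, adjusted p = 0.0046), Orm1 by 1.30 (0.0245) and Rbp4 by 0.92 (0.0204, all by edgeR). Orm1 was lost without any passage 5 library or Rspo1-negative passage 6, and Rbp4 without any passage 5 library or Rspo1-positive passage 6, with adjusted p up to 0.165 and 0.143 by edgeR. Only Hp was called without untreated, Rspo1-negative or Rspo1-positive passage 5, 1 gene each. Of all genes tested 105, 123 and 197 were then called, beside 423 in the main fit. In a fit with passage as the only term, 0 of the 19 were called for passage 10 or 6 by edgeR, beside 17 and 0 of all genes tested. At an unadjusted p under 0.05 by edgeR there were 7 and 4 of the 19, beside 1700 and 790 of all genes. Adjusted p by edgeR was 0.0587 for Orm1 and 0.13 for Fga between passages 10 and 5, and 0.714 for Hp between passages 6 and 5. Passage number, time in culture and the day of sorting cannot be told apart.

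**Figure D5:**
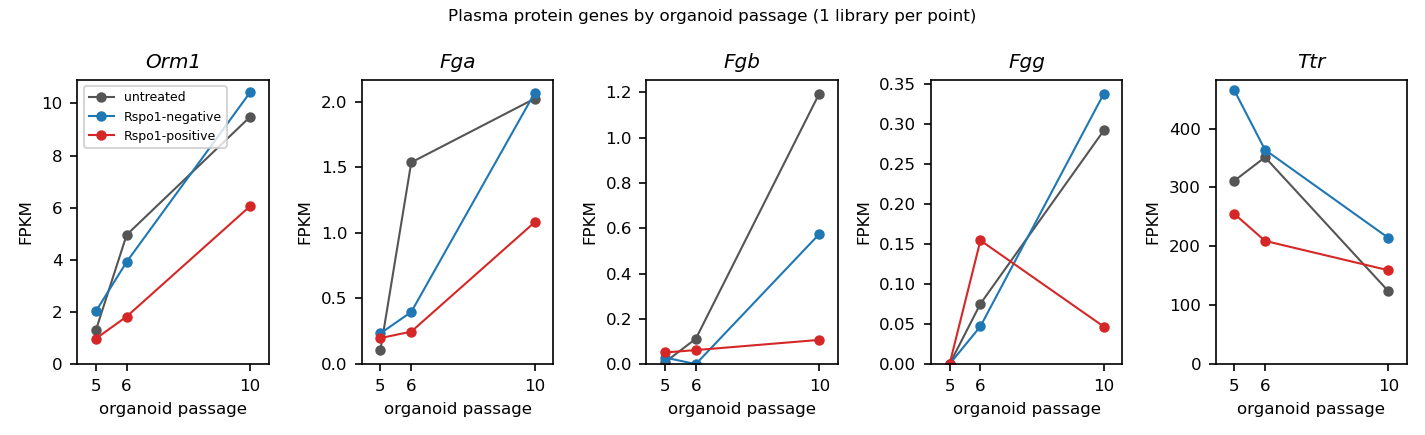
FPKM (vertical axes, from 0 and different for each gene) of Orm1, the 3 fibrinogen chains and Ttr against organoid passage (horizontal axis), 1 library per point and a line per group. Orm1 averages 1.43 FPKM at passage 5 and 8.66 FPKM at passage 10, Fga is highest at passage 10 in each group, and Ttr is lowest there in each group.

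A second list held 60 plasma proteins outside the 41. Of its genes 53 had a row, 38 had a library with more than 3 counts and 12 were at 1 FPKM or more in all 9 libraries. Between Rspo1-positive and untreated cells 2 of 25 tested genes were higher and 6 lower, beside 6.44% and 6.77% of all genes tested. Lect2, a secreted protein known as a Wnt target in liver, rose by 4.61 (adjusted p = 1.57e-05 by edgeR), from 0.109, 0.196 and 0.0676 FPKM in untreated to 3.18, 3.18 and 2.76 FPKM in Rspo1-positive cells. Pzp, a broad protease inhibitor of the macroglobulin family, fell by 2.08 (adjusted p = 5.27e-05 by edgeR), from 22.7, 36.0 and 32.4 to 7.03, 5.20 and 9.17 FPKM. Mup20, a major urinary protein, fell by 1.95 (adjusted p = 0.00153) and Apcs, serum amyloid P, by 1.29 (adjusted p = 0.0059, both by edgeR). Between Rspo1-negative and untreated cells 5 were higher and 2 lower, with Lect2 at 4.12 and Pzp at -1.88, and between the sorted fractions 1 was higher and 6 lower. In these 2 comparisons 7 of 25 genes were called, below the 35.5% and 38.9% of all genes tested.

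Of 25 hepatocyte transcription factors with a row, 14 were at 1 FPKM or more in all 9 libraries. Others stayed below 1 FPKM throughout, among them Ppara, the receptor for fatty acids, at up to 0.90 FPKM, Creb3l3, a factor of liver lipid genes, at a mean of 0.077 FPKM and Nr5a2, a regulator of bile acid genes, at a mean of 0.013 FPKM. Hnf4a, a master regulator of hepatocyte genes, ranged from 27.3 to 63.3 FPKM, and Cebpa, a C/EBP factor, averaged 22.9 FPKM. Hnf4a was lower by 0.56 in Rspo1-positive (adjusted p = 0.00946) and by 0.47 in Rspo1-negative cells (adjusted p = 0.0112, both by edgeR) than in untreated cells. Cebpa rose from untreated to Rspo1-negative cells (0.53, adjusted p = 0.0174) and was lower in the reporter-positive than in the reporter-negative fraction (-0.78, adjusted p = 0.00252, both by edgeR). Both comparisons moved with base composition, as stated above, and values with the GC and length offset are not given for these factors. In all, 3 of 21 tested factors were higher and 6 lower between Rspo1-positive and untreated cells, 8 and 4 between the fractions, and 4 and 9 between Rspo1-negative and untreated cells, beside 13.2%, 38.9% and 35.5% of all genes tested, called in either direction. Of 14 genes of the secretory route that plasma proteins take, 13 were at 1 FPKM or more in all libraries. Between Rspo1-positive and untreated cells 0 were higher and 1 lower, beside 6.44% and 6.77% of all genes tested. Between the fractions 2 were higher and 3 lower, and between Rspo1-negative and untreated cells 0 and 4. In these comparisons 38.9% and 35.5% of all genes tested were called in either direction. Of 36 hepatocyte enzymes and transporters with a row 10 were at that level. Among them were Ass1, Asl and Arg1 of the urea cycle, at means of 45.6, 20.2 and 3.31 FPKM. The cytochromes Cyp3a13 and Cyp2f2, at means of 21.8 and 16.1 FPKM, were among them too. Another 7, with Cps1 and Otc of the urea cycle and the cytochrome Cyp3a11 among them, had no library above 3 counts. Of the other listed cytochromes, Cyp1a2, Cyp2e1 and Cyp2c29 reached at most 0.169, 0.129 and 0.039 FPKM, and Cyp27a1 had 0.434 to 2.09 FPKM. Pck1, Cyp7a1, Cyp8b1 and Slco1b2 had no row and were not analysed here.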

How the data were processed

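RNA was measured by single-end 75 bp sequencing of sorted cells in 9 libraries of 100 ng RNA. Per the submitters' processing notes, reads were handled with Trimmomatic 0.35, FastQC 0.11.2, STAR 2.5.1b, featureCounts and DESeq2 on GRCm38; the annotation and strand setting are not given in the sources used here. The deposited raw counts and FPKM cover 32137 genes per library. From the first library to another, the counts per deposited FPKM of a gene change by a factor that is the same for all genes and 0.829 to 1.08 times the ratio of the total counts. The authors' deposited tables of 15807 genes give log2 fold changes, mean normalized signal, a score (the test statistic) and p-values, copied for named genes only. Counts entered edgeR 4.0.16 (R 4.3.3): filterByExpr (minimum count 10, minimum total 15), TMM, group and passage as terms, quasi-likelihood F-test, Benjamini-Hochberg adjustment over 17011 genes and a threshold of 0.05. SE is the log2 fold change over the root of F. The fit was tested on simulated data, and FPKM entered no test. Passage numbers pair the libraries: deviations from group means correlated at 0.123 to 0.573 between libraries of the same passage in 9 pairs and at -0.476 to 0.0826 in 18 other pairs. Both ranges depend on each other, since the deviations of a gene cancel within a group. Replicates differed by far more than counting noise (chi-square per gene 54.4 to 518). Values are given in every library for genes called between groups, the 6 of highest mean FPKM, Alb and Afp; from other lists at most 4 called genes with the largest change and those of 6 chosen genes that are reported here are named, and any others were named after their values were seen. The genes and lists were chosen with earlier results of these data known. Promoters come from RefSeq on GRCm38.p6 and gene coordinates from GENCODE M21 on GRCm38. Alternatives were 16 settings: no passage block, DESeq2 1.42.0, 2 other scalings, no filter, the 6 libraries compared, a GC and length offset, and leaving out each library.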

Additional observations from a re-analysis of the deposited data

How the results depend on the processing

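No plasma protein gene called in the main fit changed direction in any of the 16 alternative settings. These reuse the same libraries in whole or in part, so a called gene could hardly reverse in them. Other called genes were not checked for this. Counts below are in the order reporter-positive with untreated cells, the 2 sorted fractions, reporter-negative with untreated cells, passage 10 against 5 and passage 6 against 5, where edgeR with the replicate block on passage called 2247, 6624, 6039, 1543 and 423 genes and 6, 10, 9, 8 and 3 plasma protein genes. Without the replicate block it called 886, 4141, 3724, 17 and 0 genes and 2, 2, 5, 0 and 0 plasma protein genes, the last 2 columns with 1700 and 790 genes and 7 and 4 plasma protein genes at an unadjusted p under 0.05. With the GC and length offset 4002 and 3550 genes were called between the fractions and between Rspo1-negative and untreated cells, and 6 plasma protein genes between the fractions. There 1638 of the 4002 were higher, beside 3660 of 6624 with the block alone. Without the filter the passage counts were 2784 and 1193 genes and 13 and 6 plasma protein genes. With only the 6 libraries compared passage 10 against 5 gave 4290 genes and 16 plasma protein genes, and DESeq2 gave 851 genes and 5 plasma protein genes for passage 6 against 5. The cause of these shifts was not tested. Leaving out 1 library gave 1112 to 2519, 3674 to 8264, 3229 to 7427, 405 to 3594 and 105 to 846 genes, and 4 to 6, 2 to 13, 3 to 10, 2 to 15 and 1 to 4 plasma protein genes. The number of plasma protein genes at a level in all 9 libraries was 7 at 1 FPKM, 12 at 0.5 FPKM and 4 at 2 FPKM. At this depth most of the 22 genes below 1 FPKM in all libraries had too few counts to test.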

Other observations

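The 22 plasma protein genes that stayed below 1 FPKM everywhere were not spread evenly over the libraries, a pattern noticed after their values were seen and not tested. Their counts summed to 119 in the Rspo1-positive passage 6 library, where 17 of the 22 had a count and 7 had their highest FPKM, against 32 to 105 in the other 8 libraries. Apob gave 40 of these 119 counts, and 42 of the 105 in the untreated passage 6 library. The Rspo1-positive passage 5 library had a count for 16 of the 22. In the Rspo1-positive passage 6 library Ahsg had 9 counts, Serpina1a and Serpina1c 7 each and Apoc3 4, and Cyp2e1, a hepatocyte cytochrome, had 7. The untreated passage 6 library had 5 counts of Ahsg, 2 of Serpina1a and 1 each of Serpina1c and Apoc3. All of these were at 0 in the passage 10 libraries of the 3 groups. The Serpina1 copies are near-identical, so their counts may not be separate reads.

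Among plasma proteins outside the 41 genes, the best expressed were Cp, the copper carrier ceruloplasmin, at a mean of 431 FPKM, Selenop, the selenium carrier, at 250 FPKM, Lrg1, a leucine-rich acute phase glycoprotein, at 128 FPKM and Hgfac, the activator of hepatocyte growth factor, at 89.2 FPKM. All 4 were above the mean of Alb in every library. Cdo1, the enzyme that oxidises cysteine, was 1.07, 2.35 and 1.24 FPKM in untreated and 9.92 to 14.4 FPKM in all Rspo1-treated libraries.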
